A study of Mus musculus with 6 samples.

Results

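Integrins are adhesion receptors made of 1 alpha and 1 beta subunit, and 10 subunit genes of macrophages and osteoclasts are described here, chosen by name. They were Itgb3, Itgav, Itgb5, Itga5, Itgb1, Itga4, Itgb2, Itgam, Itgax and Itgal. The platform annotation gave exactly 1 of these symbols to 31 of the 45037 probe sets used, a probe set being a group of short array probes for 1 transcript. The probe set with the highest mean over the 6 arrays represented each gene, and the others are described by their values or ranges. A filter on dim probe sets, which asked for a value above the median of the own array on at least 3 arrays, kept 25 of the 31 probe sets and 9 of the 10 genes. Itgb3 was the gene that it removed.

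RNA levels were read on Affymetrix Mouse Genome 430 2.0 arrays for mouse bone marrow macrophages (BMMs) of strain c57BL/6 that lacked TNF receptors 1 and 2 (TNFR1-/-R2-/-), in both groups. A retrovirus brought in a chimeric receptor, TNFR1 on the outside and RANK, the receptor for RANK ligand, in the membrane and inside. In the mutant group (BM_mutant, n = 3 arrays) the IVVY motif of the RANK part carried inactivating mutations, and in the wild-type group (BM_wt, n = 3 arrays) it was intact. Both groups went through 3 days of puromycin selection (2 ug/ml) and 24 hours with M-CSF at 44 ng/ml and with TNF, the ligand of the outer part, at 10 ng/ml. Every array carried the pooled RNA of 6 dishes, and same-numbered arrays were taken as 1 of 3 independent assays. The receptor came from a virus and not from the RANK gene, and the sources used here do not give the age, sex or number of the mice. The series set out to find the genes under control of the IVVY motif, and the comparisons below ask this of the integrin genes.

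The alpha v and beta 3 subunits form the vitronectin receptor by which osteoclasts, the bone-resorbing cells that arise from macrophages, attach to bone. Beta 5 also pairs with alpha v and is the partner known from macrophages before they become osteoclasts. Alpha 5 and alpha 4 pair with beta 1 and bind fibronectin, and alpha 4 beta 1 also binds VCAM1 on other cells. The beta 2 subunit is found on leukocytes, where it pairs with alpha M (CD11b, a macrophage marker), alpha X (CD11c, a dendritic cell and macrophage marker) or alpha L (CD11a, which binds ICAM1).

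All 9 macrophage markers looked at were kept by the filter, and their summed intensity was 190367 to 209531 in the mutant group and 192628 to 203709 in the wild-type group. Of the markers of T and NK cells found on the array 0 of 5 were kept, of mast cells 0 of 5, of dendritic cells 0 of 6 and of B cells 1 of 4. Each of 3 further lists had 1 gene kept, named after its values were seen. Of 7 neutrophil markers S100a8 was kept, and the list summed to 157 to 679 in the mutant group and 241 to 706 in the wild-type group. Of 5 megakaryocyte markers Pf4 was kept, and the sums were 5217 to 15274 in the mutant group and 4501 to 9883 in the wild-type group. Of 5 endothelial markers Kdr was kept, and the sums were 73.9 to 138 in the mutant group and 60.7 to 192 in the wild-type group. Stromal cell markers stood apart in assay 3, where the 10 genes summed to 7486 on the mutant and 5620.4 on the wild-type array, against at most 477 on each of the other 4 arrays. The osteoclast genes Acp5, Mmp9, Ctsk and Dcstamp were lower in the mutant in every pair of same-numbered arrays. In such bulk RNA, fewer cells of a type and less RNA per cell cannot be told apart.

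None of the 9 integrin genes tested differed between mutant and wild type beyond the spread of the arrays. By limma, 0 of them passed, with an adjusted p of 0.99998 for each. None of the 9 had an unadjusted p under 0.05, the smallest being 0.445. Over all 22497 probe sets limma called 0, or 0%, and 198 of them, or 0.88%, had an unadjusted p under 0.05. With the assay as a block 0 integrin genes and 0 probe sets passed either, while 1189 probe sets, or 5.29%, and 0 integrin genes had an unadjusted p under 0.05. The median log2 difference, mutant minus wild type, was -0.03 over the 10 integrin genes, Itgb3 included. It was -0.0033 over the 9 integrin genes kept by the filter and 0.01 over all 10372 genes kept. Itgb2 and Itgb3 were lower in the mutant in all 3 pairs, where 12% of kept genes were, and Itgb5 was higher in all 3, where 14.5% were. Itgb3 lay at the floor of the array on 5 arrays, so its order there carries no information.

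**Figure D1:**
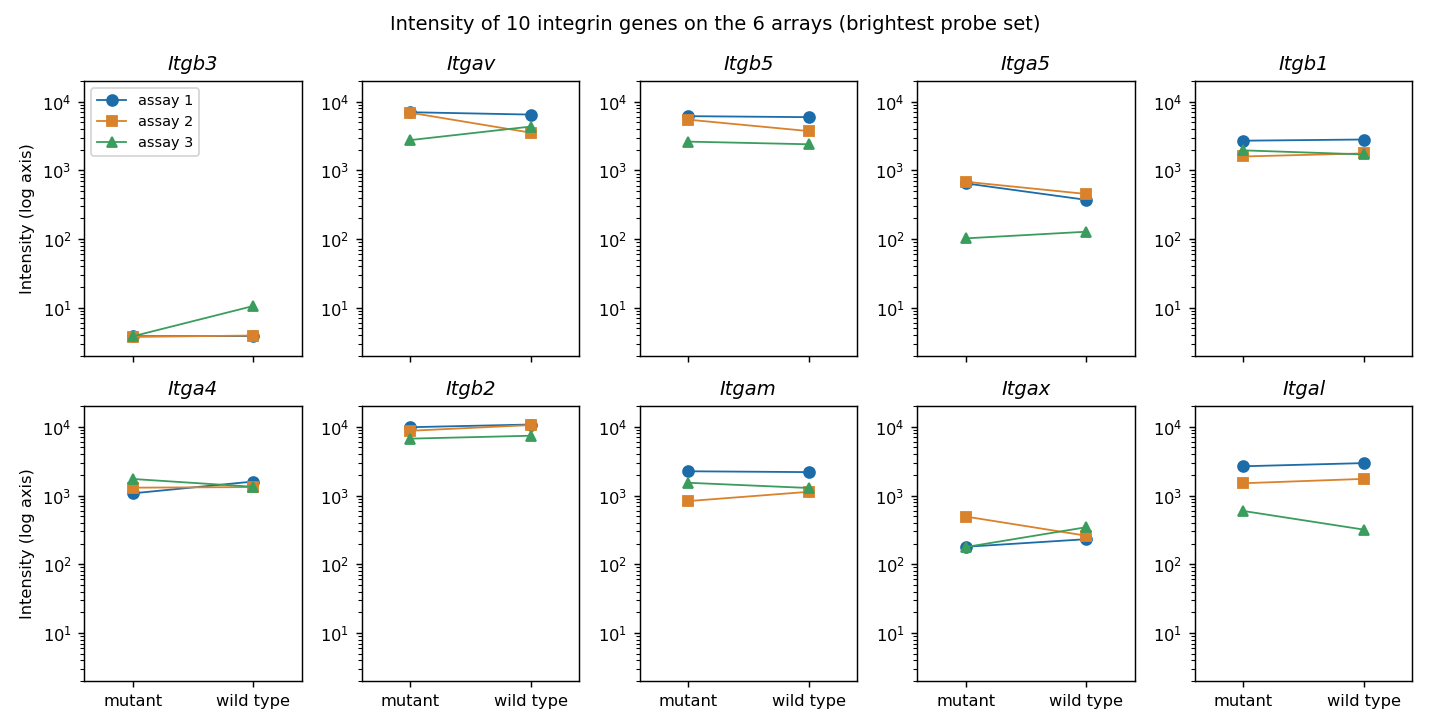
Intensity (log axis) of the brightest probe set of each integrin gene on the mutant arrays (left) and the wild-type arrays (right), with lines that join the arrays of 1 assay. The lines of Itgal keep the assays apart in both groups, and Itgb3 stays near 4 except on wild-type array 3, where it reads 10.6.

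Itgb3, the beta subunit of the osteoclast vitronectin receptor, read 3.86, 3.77 and 3.84 on mutant arrays 1, 2 and 3, against 3.88, 3.95 and 10.6 on wild-type arrays 1, 2 and 3. Wild-type array 3 was the 1 array on which it lay above the array's median intensity, which was 9.04. The other Itgb3 probe set lay between 3.94 and 3.97 in the mutant group and between 3.93 and 4.06 in the wild-type group. Both probe sets thus lay in the range of undetected transcripts on the mutant arrays and on wild-type arrays 1 and 2. On wild-type array 3 the brighter one lay above the median, while the other, at 4.06, stayed at the floor. No fold change is given. A reading at the floor does not show that the gene was silent, since how well these probe sets bind was not tested.

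The intensities of 9 osteoclast genes summed to 1892 to 2785 on the mutant arrays, against 12812, 9402 and 27726 on wild-type arrays 1, 2 and 3. The wild-type array with the highest sum was thus also the one on which the brighter Itgb3 probe set was above the median. Itgb8, another partner of alpha v, read 9.35, 9.16 and 8.96 on mutant arrays 1, 2 and 3, against 15.3, 9.24 and 181 on wild-type arrays 1, 2 and 3. It was far above the floor on wild-type array 3 and near it on the other 5. Among the dendritic cell markers Ccr7, named after its values were seen, read 103 on this array and 6.20 to 6.50 on the others. The other 5 dendritic cell markers were at the floor on every array.

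Itgav, the alpha subunit shared by beta 3, beta 5 and beta 8, read 7032, 6925 and 2763 on mutant arrays 1, 2 and 3, against 6495, 3536 and 4353 on wild-type arrays 1, 2 and 3. It was higher in the mutant in assays 1 and 2 and lower in assay 3, and the groups overlapped. The log2 differences of the pairs were 0.11, 0.97 and -0.65, with a mean of 0.14 and a 95% interval of -0.81 to 1.09 in the limma fit with the assay as a block. That interval includes both a 1.75-fold lower and a 2.13-fold higher level in the mutant, so these arrays do not settle its direction. The probe sets of Itgav disagreed. The next brightest gave 0.51, 0.37 and -0.54 for the 3 pairs, and the dimmest of those kept gave 0.46, -0.69 and -0.65. All 3 were higher in the mutant in assay 1 and lower in assay 3, and they split in assay 2. The remaining 2 Itgav probe sets read 6.90 to 8.41 on all arrays and were removed by the filter.

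Itgb5, the alpha v partner of macrophages, had a higher mean in the mutant on all of its probe sets. Its brightest probe set read 6161, 5485 and 2625 on mutant arrays 1, 2 and 3, against 5959.7, 3736 and 2401 on wild-type arrays 1, 2 and 3. The groups overlapped, since assay 3 was low in both, but within each assay the mutant read higher. The pair differences were 0.05, 0.55 and 0.13 on the log2 scale, with a mean of 0.24 ± 0.47 SE (limma, n = 3 each) and a 95% interval with the block of -0.13 to 0.61. Assay 2 gave most of this mean. All 4 probe sets had a higher mean in the mutant, by 0.20 to 0.31 on the log2 scale, and 3 of the 4 were higher in every pair. The exception was lower by 0.04 in assay 1. The 4 probe sets read the same RNA and are not replicates. The second brightest had the smallest p among the 25 integrin probe sets in the fit with the block, an unadjusted 0.0504 by limma with an adjusted p of 0.859. The suffix x_at, carried by the brightest and by 1 other of the 4, marks probes that other transcripts may bind.

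Itga5, the alpha subunit of the classical fibronectin receptor, read 648, 684 and 102 on mutant arrays 1, 2 and 3, against 372, 454 and 128 on wild-type arrays 1, 2 and 3. It was 1.71-fold and 1.49-fold higher in the mutant in assays 1 and 2, and in assay 3 it was lower, with a log2 difference of -0.28. The mean log2 difference was 0.36 ± 0.86 SE (limma, n = 3 each), with a 95% interval with the block of -0.32 to 1.03. Its 3 other probe sets were dimmer, with means of 55.4, 33.5 and 20.5, and none of the 4 was higher or lower in all pairs. On mutant array 2 a dim probe set stood at 131, against 39.5 on wild-type array 2 and 38.9 to 41.9 on the other 4.

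Itgb1, the beta subunit with the widest set of alpha partners, read 2707, 1595 and 1958 on mutant arrays 1, 2 and 3, against 2817, 1768 and 1709 on wild-type arrays 1, 2 and 3. The groups overlapped, with assay 1 highest in both. Its log2 difference was -0.0033 with a 95% interval of -0.29 to 0.28 in the fit with the block, which reaches 1.22-fold in either direction. Without the block the interval was wider, at -0.72 to 0.72. The second brightest probe set differed by -0.04, with an interval with the block of -0.43 to 0.35. The 3 other kept Itgb1 probe sets had means of 76.0, 10.1 and 9.90, and the last 2 lay close to the array medians. The Itgb1 probe set that the filter removed read 3.75 to 3.80 on the 6 arrays.

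Itga4, the alpha subunit that binds VCAM1, read 1074.5, 1300.1 and 1740.3 on mutant arrays 1, 2 and 3, against 1598, 1327 and 1339 on wild-type arrays 1, 2 and 3. The mutant values spread more widely and enclosed the wild-type ones. On the log2 scale the pairs differed by -0.57, -0.03 and 0.37, with a mean of -0.07 and a 95% interval with the block of -0.65 to 0.50. A second Itga4 probe set gave -0.57, -1.49 and 0.35, and all 4 kept probe sets were lower in the mutant in assays 1 and 2 and higher in assay 3. The third brightest read 44.5 to 97.2 in the mutant group and 52.7 to 75.1 in the wild-type group, and the fourth 16.7 to 68.2 in the mutant group and 21.5 to 58.8 in the wild-type group. The Itga4 probe set that the filter removed read 6.68 to 7.26 on the 6 arrays. Vcam1, the ligand on the partner cell, was at 8.08, 8.24 and 158 on mutant arrays 1, 2 and 3 and at 13.1, 27.6 and 628 on wild-type arrays 1, 2 and 3. It was named after its values were seen, was lower in the mutant in each assay and did not pass (limma, adjusted p = 0.99998).

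**Figure D2:**
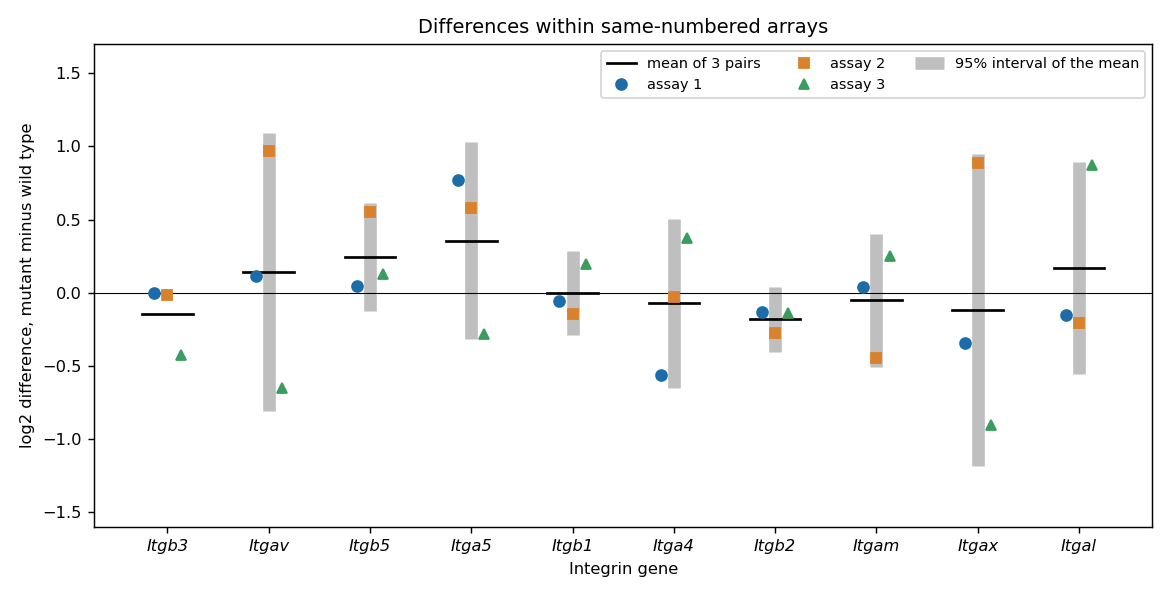
Log2 difference, mutant minus wild type, within each assay (coloured points) for the brightest probe set of each integrin gene, with the mean of 3 pairs (black line) and its 95% interval from the limma fit with the assay as a block (grey bar, not drawn for Itgb3, which the filter removed). Only for Itgb2, Itgb3 and Itgb5 do the 3 points lie on 1 side of 0, and each interval includes 0.

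Itgb2, the common subunit of the leukocyte integrins, read 9867, 8756 and 6725 on mutant arrays 1, 2 and 3, against 10802, 10610.4 and 7416 on wild-type arrays 1, 2 and 3. Each mutant value lay below its wild-type partner by a similar amount, and the groups overlapped because assay 3 was low in both. The pair differences were -0.13, -0.28 and -0.14 on the log2 scale, with a mean of -0.18 ± 0.22 SE (limma, n = 3 each). In the fit with the block the 95% interval was -0.41 to 0.04, which reaches a level 1.32-fold lower in the mutant. Without the block the interval was wider, at -0.74 to 0.38. For Itgb2 the unadjusted p of 0.0851 by limma with the block was the smallest of the 9 genes, with an adjusted p of 0.859. This depended on the filter. Without the filter on dim probe sets, limma with the block gave Itgb2 an unadjusted p of 0.0295 (adjusted p = 0.999998). The 95% interval there, -0.33 to -0.038, left out 0. A single probe set represents Itgb2.

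Itgam and Itgax encode the CD11b and CD11c subunits and are neighbours among the protein-coding genes of mouse assembly GRCm38.p6. Their pairs of arrays differed in opposite directions in each assay, a pattern seen in the values and not tested. The stretches of 250 bases before each gene's start are shown because the genes lie side by side and share the partner Itgb2, together with that of Itgb5, the gene higher in the mutant in every assay. They come from RefSeq (GRCm38.p6), where 7 of the 10 genes were matched, all but Itgb3, Itgb2 and Itgal. Capitals mark the letters GAGGAA, a core that the myeloid factor PU.1 can bind, and GGGCGG, the GC box of Sp1, on either strand.
Itgam promoter, chr7:128062390-128062639, plus strand: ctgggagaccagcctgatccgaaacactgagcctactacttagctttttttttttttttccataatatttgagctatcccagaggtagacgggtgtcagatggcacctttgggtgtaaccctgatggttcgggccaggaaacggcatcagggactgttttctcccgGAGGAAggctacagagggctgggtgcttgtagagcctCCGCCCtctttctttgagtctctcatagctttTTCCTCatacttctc
Itgax promoter, chr7:128129300-128129549, plus strand: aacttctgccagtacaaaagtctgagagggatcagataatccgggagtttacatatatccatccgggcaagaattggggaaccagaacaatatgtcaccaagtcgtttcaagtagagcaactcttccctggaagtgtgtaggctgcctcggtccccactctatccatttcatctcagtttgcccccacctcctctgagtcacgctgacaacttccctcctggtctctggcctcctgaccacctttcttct
Itgb5 promoter, chr16:33829415-33829664, plus strand: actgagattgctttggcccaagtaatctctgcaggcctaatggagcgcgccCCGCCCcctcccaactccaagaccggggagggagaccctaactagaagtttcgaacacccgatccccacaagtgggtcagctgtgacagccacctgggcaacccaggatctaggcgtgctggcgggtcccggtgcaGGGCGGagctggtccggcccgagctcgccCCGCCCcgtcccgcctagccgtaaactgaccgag

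In human myeloid cells PU.1 is known to act at the ITGAM promoter. The Itgam stretch held 2 GAGGAA matches and 1 GGGCGG match, the Itgax stretch held 0 of each, and the Itgb5 stretch held 0 and 3, with no overlap between the motifs. Of the matched genes not shown, Itgav held 2 GAGGAA and 0 GGGCGG matches, Itgb1 1 and 1, Itga5 1 and 2, and Itga4 0 and 1. Of 32851 mouse promoter stretches of the same length, 23.3% held GAGGAA and 32.7% GGGCGG. These matches describe the letters and no binding was measured.

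Itgam read 2253, 828 and 1533 on mutant arrays 1, 2 and 3, against 2190.1, 1132 and 1286 on wild-type arrays 1, 2 and 3. The assays ordered its values in both groups, with assay 1 highest and assay 2 lowest. Its pairs differed by 0.04, -0.44 and 0.25 on the log2 scale, with a mean of -0.05 and a 95% interval with the block of -0.51 to 0.40.

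Itgax read 179, 494 and 177 on mutant arrays 1, 2 and 3, against 231, 259.5 and 346 on wild-type arrays 1, 2 and 3. Mutant array 2 was the highest of the 6 and the other mutant arrays were the lowest. The pair differences were -0.34, 0.89 and -0.90 on the log2 scale, so the difference changed sign between assays, and the 95% interval with the block ran from -1.19 to 0.95. This interval, the widest of the 9 genes, reaches a level 2.28-fold lower and one 1.93-fold higher in the mutant. Markers of dendritic cells, which also make CD11c, were at the floor apart from Ccr7 on wild-type array 3.

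Itgal, the CD11a subunit, read 2663, 1508 and 596 on mutant arrays 1, 2 and 3, against 2964, 1746 and 318 on wild-type arrays 1, 2 and 3. It was slightly lower in the mutant in assays 1 and 2 and 1.83-fold higher in assay 3. On the log2 scale its pairs differed by -0.15, -0.21 and 0.87, with a mean of 0.17 ± 0.98 SE (limma, n = 3 each). The second Itgal probe set gave -0.14, -1.03 and 0.04 for the 3 pairs, so its mean of -0.38 had the other sign. T and NK cells also carry CD11a, and the summed intensity of their 5 markers was 30.1 to 30.4 in the mutant group and 29.8 to 30.8 in the wild-type group, none of them above the filter.

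**Figure D3:**
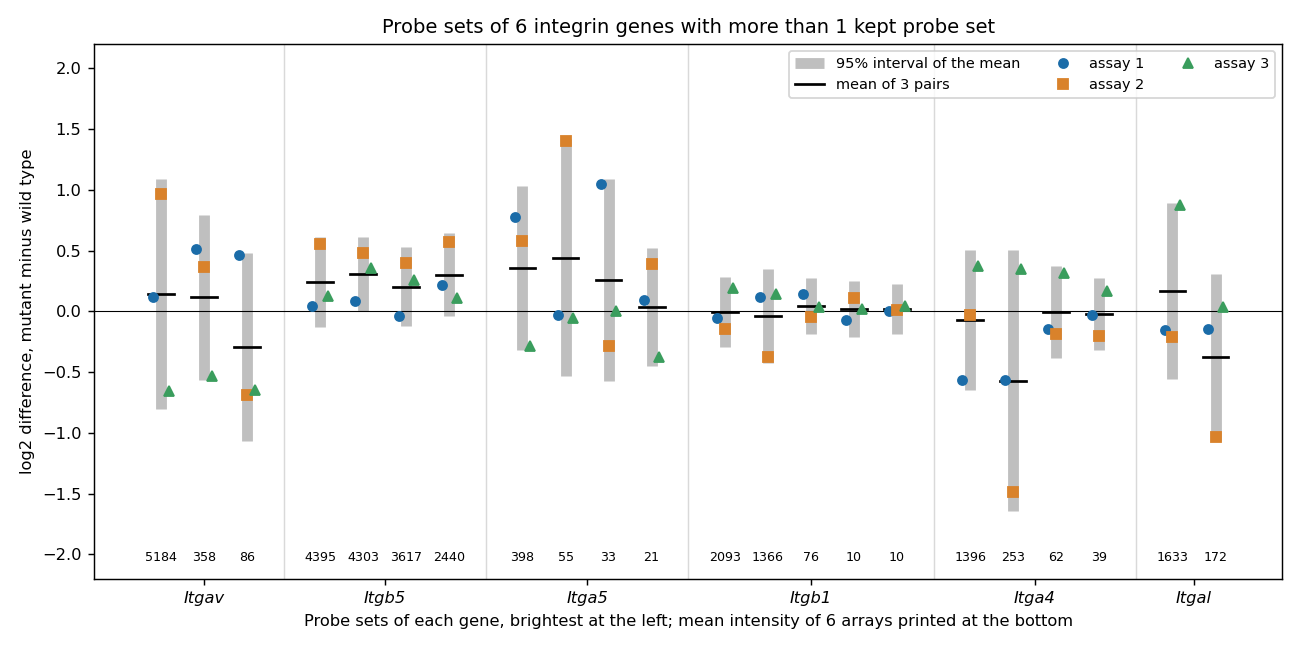
Log2 difference, mutant minus wild type, of every kept probe set of the 6 integrin genes with more than 1, brightest at the left, with the 3 pairs (coloured points), their mean (black line) and its 95% interval (grey bar, limma with the assay as a block). The 4 Itgb5 probe sets have means of 0.20 to 0.31, while those of Itgav and Itgal differ in sign.

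Most of the integrin genes differed more between assays than between mutant and wild type, and so did most kept genes. The range of the assay means exceeded the largest pair difference for 6 of the 9 integrin genes, against 7126 of the 10372 kept genes. For Itgav, Itga4 and Itgax the largest pair difference exceeded that range, but the pair differences of each changed sign between assays. The median share of a gene's sum of squares on the log2 scale was 91.1% for assay and 1.90% for group over the 9 kept integrin genes. Over the 10372 kept genes it was 77.3% and 4.51%. For Itgav, Itga4 and Itgax too the share for assay was the larger, at 57.3%, 21.2% and 41.6%. Their shares for group were 1.90%, 2.76% and 1.43%. Assay has 3 levels and group 2, so the shares are not on an equal footing. In a test of the assay term in the limma fit with the block, added after the values were seen, 6 of the 9 passed, against 23.4% of kept genes. The adjusted p was 0.0297 for Itgal, 0.0317 for Itga5, 0.0321 for Itgb5, 0.0463 for Itgb1, 0.0475 for Itgb2 and 0.0477 for Itgam. These values lie close to the threshold of 0.05, and without the filter on dim probe sets 0 of them passed by limma, where 0.575% of all probe sets did. Itgav, Itga4 and Itgax did not pass, with an adjusted p of 0.283, 0.736 and 0.454.

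Itgal showed the widest range, with assay 1 on average 6.25-fold above assay 3 on the log2(value + 16) scale. Itga5 was 3.88-fold and Itgb5 2.40-fold higher in assay 1 than in assay 3, and Itgb2 1.46-fold. Itgam did not follow this order, as assay 1 was 2.27-fold above assay 2 and assay 3 lay between. Itgal, Itga5, Itgb5 and Itgb2 were lowest in assay 3, where the stromal markers were high, Sparc at 1325 on the mutant array against 1061 on the wild-type one, and Col3a1 at 524 against 380.3. The sum of the neutrophil markers, most of it from S100a8 alone, was also lowest in assay 3. It was 157 on the mutant and 241 on the wild-type array, against 460 to 706 on the other 4. S100a8 had a 3.55-fold range between assays (limma assay term, adjusted p = 0.0298). The other 6 neutrophil markers on the array, S100a9, Mpo, Elane, Ltf, Camp and Ngp, were not kept by the filter. Neutrophils also carry Itgb2, Itgal and Itgam, of which Itgam was lowest in assay 2. The sum of the megakaryocyte markers, nearly all of it from Pf4 alone, was lowest in assay 3 as well. It was 5217 on the mutant and 4501 on the wild-type array, against 9612 to 15274 on the other 4. The other megakaryocyte markers on the array, Itga2b, Gp1bb, Gp9 and Ppbp, were not kept by the filter. The part of any of these cells in the integrin values was not tested. Macrophage markers summed to 209531 on the mutant and 203709 on the wild-type array of assay 3, no lower than on the others.

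Of 16 other integrin subunit genes listed, 14 were found on the array and 5 were kept, and 0 passed by limma. Itga6, the alpha subunit of laminin receptors, read 2939.9 to 6581 on the 6 arrays and had a log2 difference of 0.20. It was named after its values were seen. The other 4 were dim. Itgb7, a beta subunit of lymphocytes, differed by -0.41 ± 0.33 SE and was lower in every pair. Itga8, an alpha subunit of contractile cells, differed by 0.51 ± 0.54 SE and Itga9 by 0.09 ± 0.09 SE (limma, n = 3 each). Itgb6, Itgb4 and Itga2b, which belong to epithelia and platelets, were also named after their values were seen and lay at the floor, with means of 5.38, 4.03 and 5.30 over the 6 arrays.

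Genes that switch integrins on inside the cell went both ways. Of 10 kept, 5 were higher and 5 lower on the mean, 0 passed, and the median log2 difference was -0.0032. Fermt3, the kindlin of blood cells, which binds beta tails, averaged 13109.9 ± 2794 in mutant cells and 13669.9 ± 1185 in wild-type cells (SD, n = 3 each). Rap1a, a small GTPase upstream of talin, was at 6150.1 ± 1029.9 in mutant cells and 6466 ± 1303 in wild-type cells (SD, n = 3 each). Apbb1ip, the RIAM adaptor that links Rap1 to talin, differed by 0.21 ± 0.19 SE. Rasgrp3, an exchange factor for Rap1 and Ras, had the widest difference of the list, 1.06 ± 0.83 SE, and it rested on assay 2, where the pair difference was 2.81 against 0.15 and 0.21 in assays 1 and 3.

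Of 6 kept genes that hold integrins inactive or oppose Rap1, 4 were higher and 2 lower in the mutant, with a median of 0.14 and 0 passing. Sharpin, which binds alpha tails, read higher in every pair, by 0.36, 0.09 and 0.10 on the log2 scale. Sipa1, which switches Rap1 off, was higher by 0.14, 0.42 and 0.34. Dok2, an adaptor of myeloid cells, was higher by 0.50, 0.82 and 0.40, and Dok1, which competes with talin for beta tails, was lower by 0.23, 0.16 and 0.22. Of all kept genes 14.5% were higher and 12% lower in all 3 pairs, and these 4 genes were named for the smallest p of the list. Their pair differences stand beside an adjusted p of 0.99998 for each by limma, and of 0.859 with the block.

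Of 23 kept genes of adhesion signalling, which act when integrins have bound, 13 were higher and 10 lower, with a median of 0.04 and 0 passing. Src, the kinase that beta 3 integrin engages in osteoclasts, read 8.95, 10.7 and 26.5 on mutant arrays 1, 2 and 3, against 30.0, 65.1 and 68.4 on wild-type arrays 1, 2 and 3. Src lay close to the median intensity of mutant arrays 1 and 2, and its log2 difference was -1.16 ± 0.33 SE (limma, adjusted p = 0.99998, n = 3 each). Rac2, a small GTPase of blood cells, read 1613, 1042 and 1471 on mutant arrays 1, 2 and 3, against 1914, 1708 and 2031 on wild-type arrays 1, 2 and 3. For both, the mutant and wild-type ranges did not overlap, with the mutant lower, as for 1.96% of kept genes. Vav1, an exchange factor for Rac, was higher on all mutant arrays, at 905 ± 66.8 in mutant cells and 779.7 ± 35.8 in wild-type cells (SD, n = 3 each), as 1.36% of kept genes were. Crkl, an adaptor, differed by -0.19 ± 0.17 SE.

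**Figure D4:**
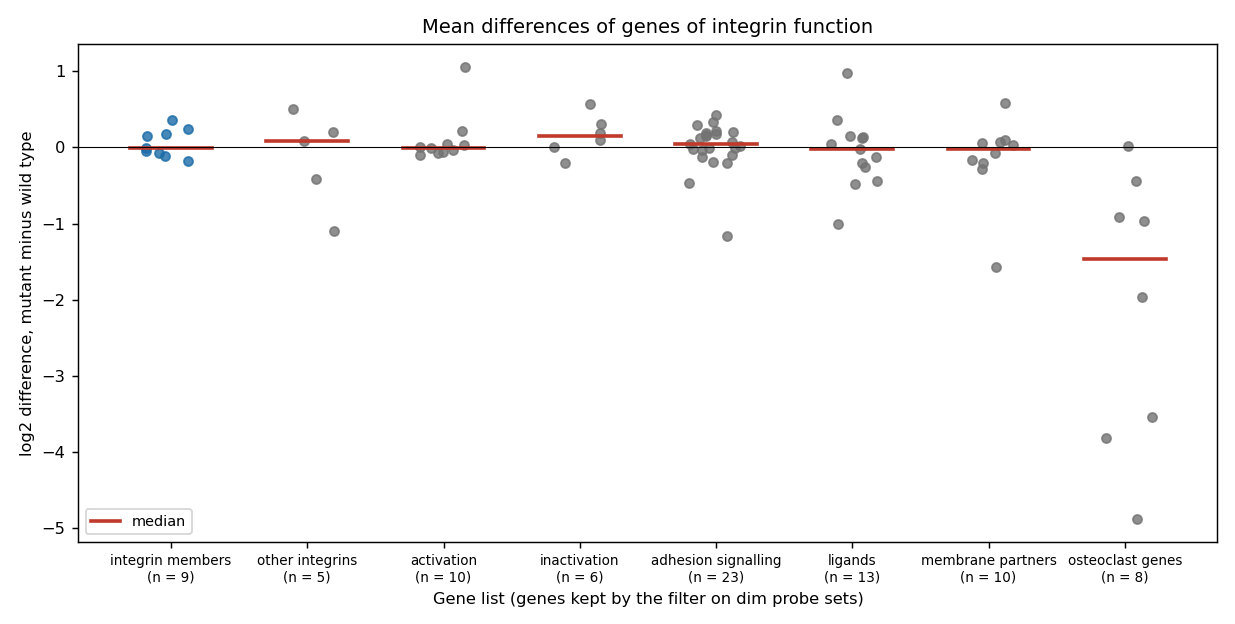
Mean log2 difference, mutant minus wild type, of the kept genes of each list (points) with the list's median (red line). The integrin genes lie between -0.18 and 0.36, and the osteoclast genes at the right have a median of -1.47.

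Among the ligands 13 of 26 genes listed were kept, 6 higher and 7 lower, with a median of -0.02 and 0 passing. Fn1, fibronectin, which alpha 5 beta 1 and alpha v integrins bind, read 517, 430.5 and 1281 on mutant arrays 1, 2 and 3, against 212, 202 and 795 on wild-type arrays 1, 2 and 3. It was higher in the mutant in each assay, with a log2 difference of 0.98 ± 0.68 SE (limma, adjusted p = 0.99998, n = 3 each). Fn1 is also made by stromal cells, and its arrays of assay 3 were the brightest in both groups. The part of such cells in its values was not tested. Edil3, a ligand of alpha v integrins, was lower on all mutant arrays, as 1.96% of kept genes were. It averaged 91.7 ± 28.0 in mutant cells and 128 ± 14.4 in wild-type cells (SD, n = 3 each). Icam1, the ligand of alpha L and alpha M, was lower in each assay, with a mean of -0.48 ± 0.36 SE. Madcam1 averaged 12.4 in mutant cells and 15.1 in wild-type cells, near the array medians.

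Of 10 membrane partners of integrins that were kept, 5 were higher and 5 lower, with a median of -0.02 and 0 passing. Cav1, the main protein of caveolae, read 1325, 503 and 358 on mutant arrays 1, 2 and 3, against 1636, 1942 and 2066 on wild-type arrays 1, 2 and 3. The groups did not overlap, with the mutant lower, as for 1.96% of kept genes. The log2 difference was -1.57 ± 0.49 SE (limma, adjusted p = 0.99998, n = 3 each). The pair differences were -0.30, -1.92 and -2.48, so assay 1 showed little of it. Cd36, a scavenger receptor that also binds thrombospondin, was higher in the mutant in each assay, by 0.26, 0.74 and 0.74. Cd82, a tetraspanin, and Bsg, the CD147 protein, differed by -0.29 ± 0.23 and -0.16 ± 0.15 SE. Of these 6 lists, limma gave an unadjusted p under 0.05 to 1 gene of adhesion signalling, Src, and 1 membrane partner, Cav1, where 1.14% of all kept genes had one. With the block it did so for 2 of 6 inactivators (Dok2 and Sipa1) and 3 of 23 genes of adhesion signalling, among them Src and Rac2. It also did so for 2 of 13 ligands (Fn1 and Vcam1) and 2 of 10 partners (Cav1 and Cd36). Of all kept genes 5.89% had one, and 0 passed after adjustment. The 8 kept osteoclast genes, in comparison, had a median of -1.47 with 7 lower in every pair. Of these 8 genes 0 passed too, without or with the block. On these arrays 0 passing therefore does not tell unchanged genes from changed ones. That this list was lower was known from earlier analysis of these arrays.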

How the data were processed

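The files held intensities, deposited by the authors on a linear scale as probe set summaries of each array. GCOS and GCRMA are the tools in the submitters' processing notes, with neither versions nor order. Per the labels, groups and replicate numbers come from the sample titles. The 75th percentiles were 160.5 to 164, so no further normalization was applied. GCRMA makes arrays alike in distribution and sets dim probe sets to a floor.

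Leaving out 64 controls left 45037 probe sets, of which 34945 had 1 gene symbol, 932 several and 9160 none. Intensities were transformed to log2(value + 16), which understates changes of dim genes. Probe sets above their array's median on at least 3 of 6 arrays were kept (22497). Mutant minus wild type was tested, two-sided, with limma 3.58.1 in R 4.3.3 without a block, with Benjamini-Hochberg adjustment over all kept probe sets and a threshold of 0.05. The fits were tested on simulated data.

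Deviations of same-numbered arrays from their group means correlated at 0.671 to 0.845, those of other arrays at -0.618 to -0.0138. With the 3 independent assays of the labels, same-numbered arrays were treated as pairs, and the 95% intervals use this block. Whether the assays used different mice is not stated, and p-values measure the spread between these pools. Members, lists and alternatives were chosen with earlier results of these data known. Genes named were the 10 integrins, up to 4 genes of each list with the smallest p, and Acp5, Ctsk, Mmp9, Dcstamp, Sparc and Col3a1. Named besides, after their values were seen, were Vcam1, Ccr7, Itga6, Itgb6, Itgb4, Itga2b, S100a8, Pf4 and Kdr. The neutrophil markers S100a9, Mpo, Elane, Ltf, Camp and Ngp and the megakaryocyte markers Gp1bb, Gp9 and Ppbp were too. Several list genes, among them Itgad, were not analysed here.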

Additional observations from a re-analysis of the deposited data

How the results depend on the processing

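No integrin gene passed limma under any alternative run, and with a fixed replicate block 0 probe sets and 0 integrin genes passed, so the pairing changed no call. With a random block limma called 1 probe set, of no integrin gene. Leaving out 1 array at a time, which moves the balance between assays, gave log2 differences of -0.085 to 0.59 for Itgav, -0.081 to 0.62 for Itgb5, -0.17 to 1.20 for Itga5, -0.21 to 0.23 for Itgb1, -0.26 to 0.086 for Itga4, -0.38 to 0.33 for Itgam, -0.58 to 0.12 for Itgax and -0.76 to 0.82 for Itgal, each range crossing 0, and the cause was not tested. Itgb2 stayed lower in the mutant, at -0.36 to -0.027, and so did Itgb3 at the floor. The median over the integrin genes, -0.03, ran from -0.12 to 0.23 without 1 array. It was -0.063 with the mean of all probe sets of a gene, and 0.085, -0.013 and -0.055 without both arrays of assay 1, 2 or 3, an alternative chosen after seeing the data. Without assay 3, 5 integrin genes were lower in both remaining pairs, among them Itgb3, whose order at the floor carries no information. The count was 2 without assay 1 and 3 without assay 2. The share of all kept genes lower in both remaining pairs was not computed, so these counts have no background to be read against. Itgb1 differed by 0.0093 after quantile normalization. The test between assays passed 6 integrin genes, and 23.3% of all kept probe sets. It passed 4 integrin genes with a pseudocount of 1, 5 with one of 64 and 6 with a filter at the 70th percentile. The shares of all tested probe sets there were 22.7%, 20.1% and 36.2%, so the background moved too. Without the filter on dim probe sets it passed 0 integrin genes and 0.575% of probe sets. The number of arrays, and for Itgb3 a signal at the floor, limits these values.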
